A study of Homo sapiens with 4 samples.

Results

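The growth factor and prolactin receptors examined here were 10 genes, EGFR, ERBB2, ERBB3, MET, FGFR3, FGFR4, IGF1R, INSR, PDGFRA and PRLR, out of 16370 genes with a count. They were taken by gene symbol, and all 10 were found in the tables of both parental lines. Messenger RNA was sequenced from 4 human hepatoma cultures with 1 library each. The established hepatoma lines Hep3B and Huh7 formed the hepatocellular carcinoma group (HCC). Hep3B-C and Huh7-C are lines enriched from them for stem cell properties, and the labels call them hepatic cancer stem cells (HCSC). Markers of the stem cell state were not examined here. The labels name no drug, allele or time point for any of the lines. The question of the design was how each HCSC line differs from the HCC line it came from, and the difference is given as HCSC over HCC.

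All but 1 of these proteins are receptor tyrosine kinases. A ligand brings receptor chains together at the cell surface, the kinases phosphorylate each other, and adaptor proteins then carry the signal to the RAS-ERK and PI3K-AKT cascades. PRLR, the prolactin receptor, has no kinase of its own and signals through JAK2 and STAT5. In the liver, MET and EGFR drive regenerative growth, INSR controls glucose and lipid metabolism, and FGFR4 together with its co-receptor KLB receives FGF19 from the gut, which represses bile acid synthesis.

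Total counts on genes were between 2896418 in Hep3B and 4641927 in Hep3B-C, and the 10 receptors together held 4745 to 5240 counts in a library. Levels are given as counts and as CPM, counts scaled to the total gene count of the library. Where genes are compared with each other, levels are given as RPKM, which also divides by gene length. A count of 3, taken as the smallest detectable level, was worth 0.646 to 1.04 CPM. The 9 hepatocyte markers examined, among them ALB, APOB and HNF4A, had at least 10 counts in every library. PTPRC and CD3E of leukocytes, CDH5 and TEK of endothelium, and DCN and ACTA2 of fibroblasts were at 0 in all 4 libraries. Other markers of these lists were present. CD68 had 289 to 1254 counts and LYZ 236 to 832, PDGFRB reached 186 in Huh7 and PECAM1 93 in Huh7-C. Summed levels were 186.4 to 450.7 CPM for the 5 leukocyte markers, 10.8 to 45.2 for the 8 stellate and fibroblast markers and 2.80 to 21.5 for the 5 endothelial markers. CD68 was called up in Hep3B-C, with a ratio of 2.71 (2.38 to 3.09), a call lost with trends on GC content and gene length removed (log2 fold-change 0.34). The part of other cells in the differences below was not tested. Each test below compares 2 libraries and covers counting error only, as do all intervals. Variation between cultures was not measured, and no difference within a parental line has a replicate check. In bulk RNA, fewer cells of a type and less RNA per cell cannot be told apart.

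The region before the start of 4 of the genes is shown because they form the pairs of close relatives, FGFR3 with FGFR4 and IGF1R with INSR, whose balance differed between libraries. The sequences are from RefSeq on GRCh38.p14, 5′ to 3′ on the strand of the gene, ending before the transcribed part. Capitals mark each GC box, GGGCGG on either strand (CCGCCC on the other), the element bound by Sp1. The stretches are chr5:177086665-177086885 (plus strand) for FGFR4, chr4:1793043-1793292 (plus strand) for FGFR3, chr19:7294415-7294664 (minus strand) for INSR and chr15:98648289-98648538 (plus strand) for IGF1R.
FGFR4: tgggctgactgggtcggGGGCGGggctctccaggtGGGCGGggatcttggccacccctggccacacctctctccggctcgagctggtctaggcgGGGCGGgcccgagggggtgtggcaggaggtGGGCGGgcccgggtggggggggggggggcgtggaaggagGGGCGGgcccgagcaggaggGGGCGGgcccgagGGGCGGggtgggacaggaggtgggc
FGFR3: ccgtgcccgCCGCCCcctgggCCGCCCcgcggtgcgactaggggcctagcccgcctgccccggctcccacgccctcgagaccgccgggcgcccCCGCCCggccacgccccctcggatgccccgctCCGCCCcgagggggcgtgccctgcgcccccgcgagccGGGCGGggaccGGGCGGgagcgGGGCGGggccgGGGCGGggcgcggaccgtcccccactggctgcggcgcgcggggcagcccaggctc
INSR: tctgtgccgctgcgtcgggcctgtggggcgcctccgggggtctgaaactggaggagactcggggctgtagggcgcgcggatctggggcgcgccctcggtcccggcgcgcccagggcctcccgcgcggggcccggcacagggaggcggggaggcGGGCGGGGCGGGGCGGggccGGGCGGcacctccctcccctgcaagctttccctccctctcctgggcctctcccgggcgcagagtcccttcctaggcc
IGF1R: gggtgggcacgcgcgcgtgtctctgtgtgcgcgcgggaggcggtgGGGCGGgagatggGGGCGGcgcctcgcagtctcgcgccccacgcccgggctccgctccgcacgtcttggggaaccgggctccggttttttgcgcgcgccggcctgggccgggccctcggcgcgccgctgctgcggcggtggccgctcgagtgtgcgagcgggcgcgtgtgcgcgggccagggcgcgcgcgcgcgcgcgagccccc
FGFR4 held 7 GC boxes in its stretch and FGFR3 held 8, against 4 in INSR and 2 in IGF1R, some of them overlapping in INSR. Of 35116 promoter windows of 250 bases in the same table, 42.6% held at least 1. Of the 9 receptors with an entry, 6 had a GC box in the 250 bases before their first start, and none had the letters TATAAA on either strand, which 10.7% of windows had. The first starts of ERBB2, PDGFRA and PRLR had no GC box. Their windows were 65.6%, 46.8% and 47.6% G or C, against 79.6% for FGFR4 and 86.8% for FGFR3. The bases before the annotated gene were 70 for ERBB2, 54 for PDGFRA and 148 for PRLR, against 221 for FGFR4 and 250 for FGFR3. Except for FGFR3, the rest of each of these windows lay inside the gene. The second start of PDGFRA had 2 GC boxes in a window of 64% G or C. These matches describe the letters only.

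In Hep3B-C, 9 of the 10 receptors were lower than in Hep3B and FGFR4 was higher. FGFR4 rose 3.70-fold over Hep3B, while EGFR, ERBB3, MET, IGF1R, INSR, PDGFRA and PRLR fell by at least 1 on the log2 scale. With trends of fold-change on GC content and gene length removed, the log2 fold-change of FGFR4 was 0.55 and it was not called. The median of all genes with at least 20 counts was then -0.46. In Huh7-C none of the 10 passed the threshold of an absolute log2 fold-change of 1, and MET and INSR, which fell in Hep3B-C, were higher than in Huh7. A gene was called when its FDR by the Audic-Claverie exact Poisson test was 0.01 or less and its log2 fold-change was 1 or more in either direction. By this rule 1 of 10 receptors was called up and 7 down in the Hep3B pair, where 13.2% of 15480 genes were called up and 30.4% down. In the Huh7 pair 0 of 10 were called, where 4.19% of 14807 genes were called up and 4.15% down. The receptors were chosen with earlier results of these data known, so these counts are descriptions. The median log2 fold-change of the receptors was -1.37 in the Hep3B pair, beside -0.55 over 11433 genes with at least 20 counts. In the Huh7 pair it was 0.09 over the 8 receptors above 3 counts, beside 0.06 over 11134 genes. With a BCV of 0.4 assumed between replicates, which adds variation between cultures to the counting error, PDGFRA was the only receptor still called in the Hep3B pair. At that BCV 1.09% of all genes were called down there and 0.401% up.

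**Figure D1:**
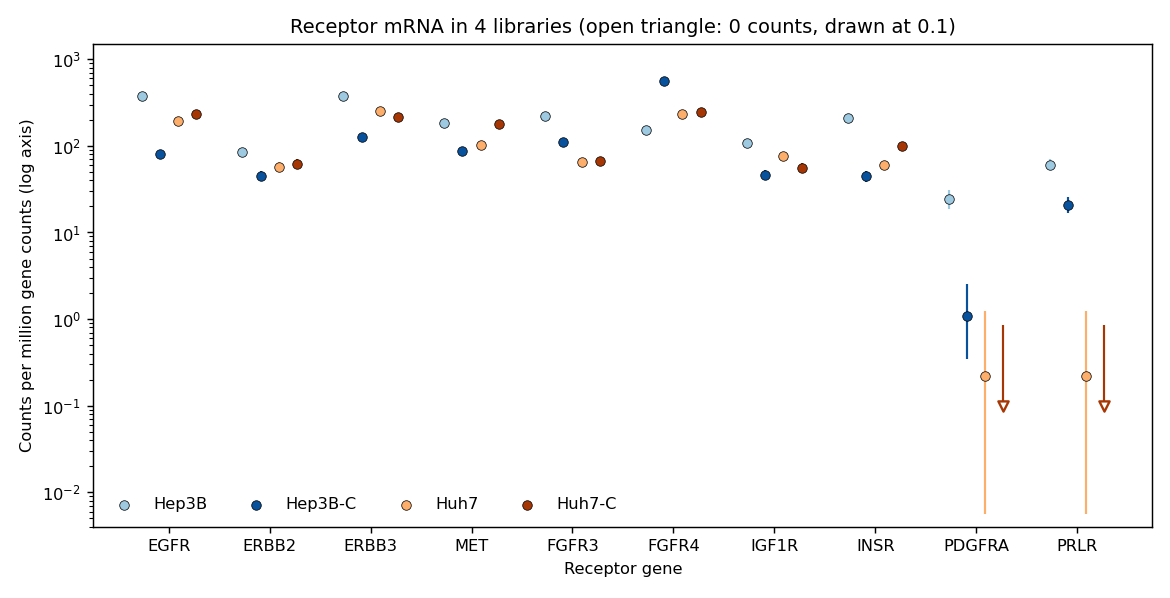
Level of each receptor in CPM (log axis) in the 4 libraries, with exact Poisson 95% intervals. Of the 10 receptors, 9 are highest in Hep3B and FGFR4 is highest in Hep3B-C, and PDGFRA and PRLR are at 1 count or 0 in Huh7 and Huh7-C.

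FGFR4 (chr5:177086886-177098144 in GRCh38, plus strand) had 443 counts in Hep3B and 2624 in Hep3B-C, then 1067 in Huh7 and 1055 in Huh7-C. In CPM these were 152.9, 565.3, 235.2 and 243.4. It was the only receptor with its highest level in an HCSC line, and Hep3B, the highest library for the other 9, was its lowest. The ratio of Hep3B-C to Hep3B was 3.70 (95% interval 3.34 to 4.10, Audic-Claverie FDR = 1.05e-186), a log2 fold-change of 1.89 ± 0.07 (SE). Huh7-C and Huh7 had a ratio of 1.04 (0.95 to 1.13), which is within counting noise by the same test (FDR = 0.655). The log2 fold-changes of the pairs differed by 1.84 (1.65 to 2.03). Per length, FGFR4 was the most abundant of the 10 receptors in Hep3B-C, Huh7 and Huh7-C and ranked 4 in Hep3B. Its share of the summed RPKM of the receptors was 15.5% in Hep3B and 65.6% in Hep3B-C, then 35.9% in Huh7 and 34.4% in Huh7-C. The other 9 together had 272.6 RPKM in Hep3B and 96.7 in Hep3B-C, so the sum of all 10, 322.4 and 280.9 RPKM, differed less than its parts.

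FGFR3 (chr4:1793293-1808872, plus strand), a relative of FGFR4 that also binds members of the FGF family, had 634 counts in Hep3B and 520 in Hep3B-C, then 293 in Huh7 and 287 in Huh7-C. In CPM these were 218.9, 112, 64.6 and 66.2. Its level in Hep3B-C was 0.512 of that in Hep3B (0.455 to 0.576), past the FDR threshold (Audic-Claverie FDR = 5.61e-29) but with a log2 fold-change of -0.97 ± 0.09 (SE), short of 1. Huh7 and Huh7-C were within counting noise of each other (Audic-Claverie FDR = 0.93), and both were below either Hep3B line. FGFR3 and FGFR4 have transcripts of similar base composition, 62.1% and 63.6% G or C, and went in opposite directions in the Hep3B pair. Per length, the ratio of FGFR4 to FGFR3 was 0.977 in Hep3B and 7.06 in Hep3B-C, then 5.09 in Huh7 and 5.14 in Huh7-C. The change of this ratio in the Hep3B pair was 7.22-fold, or 2.85 on the log2 scale (2.63 to 3.07), and in the Huh7 pair it was 0.01 (-0.25 to 0.28). A ratio of genes within a library does not depend on how libraries are scaled, though it shows unequal change and not which gene moved. This ratio and the others below were chosen after the data had been seen.

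The other parts of the FGF receptor system were measured as well. KLB, the co-receptor of FGFR4, had 486 counts in Hep3B and 151 in Hep3B-C, then 116 in Huh7 and 77 in Huh7-C, and fell 5.16-fold in Hep3B-C (4.29 to 6.23). FGFR4 and its co-receptor thus went in opposite directions in the Hep3B pair. Their transcripts differ in base composition, 63.6% G or C for FGFR4 and 44.4% for KLB. With GC and length trends removed FGFR4 was not called (0.55) and KLB was still called down (-1.25). FGFR2 had 297 counts in Hep3B and 30 in Hep3B-C, then 1 in Huh7 and 2 in Huh7-C, and fell 15.9-fold in Hep3B-C (10.9 to 23.9). FGFR1 had 53, 46, 107 and 168 counts in the same order and was not called in either pair. FGFRL1, which binds FGF but lacks a kinase domain, had 601, 1670, 255 and 376 counts, a ratio of 1.73 in the Hep3B pair and 1.54 in the Huh7 pair, neither past the fold threshold.

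**Figure D2:**
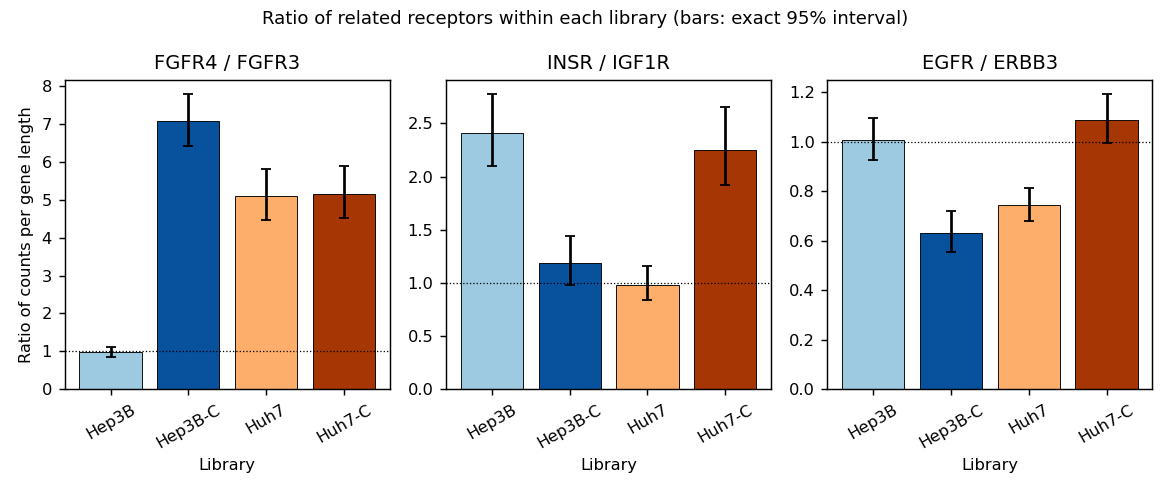
Ratio of counts per gene length of related receptors in each library, with exact 95% intervals and a dotted line at 1. FGFR4 over FGFR3 is 0.977 in Hep3B and between 5.09 and 7.06 in the other libraries, while INSR over IGF1R and EGFR over ERBB3 are lower in Hep3B-C than in Hep3B and higher in Huh7-C than in Huh7.

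Among receptors of the EGF family, EGFR and ERBB3 fell in Hep3B-C and ERBB2 was lower without passing the fold threshold. EGFR (chr7:55019021-55211628, plus strand), which binds EGF, amphiregulin and related ligands, had 1101 counts in Hep3B and 374 in Hep3B-C, then 878 in Huh7 and 1019 in Huh7-C. In CPM these were 380.1, 80.6, 193.5 and 235.1. Hep3B-C was the lowest library and Hep3B the highest, and all neighbours in that order differed beyond counting noise. EGFR was 4.72-fold lower in Hep3B-C than in Hep3B (4.19 to 5.32, Audic-Claverie FDR = 7.03e-174), and 1.22-fold higher in Huh7-C than in Huh7 (1.11 to 1.33, Audic-Claverie FDR = 0.000138). The log2 fold-changes of the pairs, -2.24 and 0.28, differed by -2.52 (-2.73 to -2.30). With GC and length trends removed, the value in the Huh7 pair was 0.08 and did not pass the FDR threshold.

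ERBB3 (chr12:56076799-56103505, plus strand), which binds neuregulins, has little kinase activity and signals through its partners, had 1076 counts in Hep3B and 583 in Hep3B-C, then 1161 in Huh7 and 922 in Huh7-C. In CPM these were 371.5, 125.6, 255.9 and 212.7. It was lower in the HCSC line of both parental lines, with a ratio of 0.338 (0.305 to 0.374) in the Hep3B pair and 0.832 (0.762 to 0.907, Audic-Claverie FDR = 0.000151) in the Huh7 pair. ERBB2 (chr17:39687914-39730426, plus strand), the shared partner of the family that binds no ligand, had 243, 209, 261 and 271 counts in the same order. Its ratio was 0.537 (0.444 to 0.648) in the Hep3B pair, past the FDR threshold but not the fold threshold, and 1.09 (0.914 to 1.29) in the Huh7 pair, within counting noise. ERBB2 was the least variable of the 3, from 45.02 to 83.9 CPM, and neither Huh7-C and Huh7 nor Huh7 and Hep3B-C differed beyond counting noise at an FDR of 0.01.

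Per length, EGFR and ERBB3 were nearly equal in Hep3B, at 67.9 and 67.4 RPKM, and were the most abundant of the 10 there. The ratio of EGFR to ERBB3 was 1.01 in Hep3B and 0.631 in Hep3B-C, then 0.744 in Huh7 and 1.09 in Huh7-C. On the log2 scale it changed by -0.67 (-0.90 to -0.45) in the Hep3B pair and by 0.55 (0.37 to 0.73) in the Huh7 pair. The EGFR ligands AREG and EREG, amphiregulin and epiregulin, also fell in Hep3B-C. AREG had 162 counts in Hep3B and 28 in Hep3B-C, then 924 in Huh7 and 788 in Huh7-C, and EREG had 412, 93, 208 and 295. AREG was 9.27-fold (6.18 to 14.4) and EREG 7.10-fold (5.66 to 8.99) lower in Hep3B-C than in Hep3B, and neither was called in the Huh7 pair. ERRFI1, an inhibitor that binds the EGFR kinase, had 583, 71, 768 and 765 counts and fell 13.2-fold in Hep3B-C (10.3 to 17.1).

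MET (chr7:116672390-116798386, plus strand), the receptor of hepatocyte growth factor, had 532 counts in Hep3B and 407 in Hep3B-C, then 466 in Huh7 and 771 in Huh7-C. In CPM these were 183.7, 87.7, 102.7 and 177.9. Hep3B and Huh7-C were high and within counting noise of each other (Audic-Claverie FDR = 0.643), and Huh7 and Hep3B-C were low and did not differ beyond it at an FDR of 0.01 (FDR = 0.0389). The high and the low levels were each seen in an HCC line and an HCSC line. The ratio was 0.477 (0.419 to 0.544, Audic-Claverie FDR = 1.05e-28) in the Hep3B pair and 1.73 (1.54 to 1.95, Audic-Claverie FDR = 4.95e-20) in the Huh7 pair. The fall in Hep3B-C was the smallest of the 7 that were called, and with the trends of fold-change on GC content and length removed its log2 fold-change turned from -1.07 to 0.29.

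The ligand of MET, HGF, had 0 counts in Hep3B and Hep3B-C, 1 count in Huh7 and 152 counts in Huh7-C. The ratio in the Huh7 pair was 159 with a counting interval of 28.1 to 6327 (Audic-Claverie FDR = 4.12e-44). HGF is usually made by mesenchymal cells of the liver. Of the 8 stellate and fibroblast markers, 4 were at 0 in Huh7-C, DCN and ACTA2 among them, COL3A1 had 58 counts there and 0 in Huh7, and their sum was 15.7 CPM in Huh7-C and 45.2 in Huh7. Without PDGFRB, which alone had 41 CPM in Huh7, the sum of the other 7 was higher in Huh7-C, 15.2 CPM against 4.19 in Huh7. PECAM1, an endothelial marker, had 17 counts in Huh7 and 93 in Huh7-C. The part of other cells in the HGF counts was not tested. FURIN, a protease that matures the precursor of INSR and other receptors, had 832 counts in Hep3B and 910 in Hep3B-C, then 2675 in Huh7 and 594 in Huh7-C, and fell 4.30-fold in Huh7-C (3.93 to 4.71).

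INSR (chr19:7112255-7294034, minus strand), the insulin receptor, had 604 counts in Hep3B and 206 in Hep3B-C, then 273 in Huh7 and 434 in Huh7-C. In CPM these were 208.5, 44.4, 60.2 and 100.1. All neighbours in the order of the libraries differed beyond counting noise. INSR was 4.70-fold lower in Hep3B-C than in Hep3B (4.01 to 5.53, Audic-Claverie FDR = 1.69e-95) and 1.66-fold higher in Huh7-C than in Huh7 (1.43 to 1.94, Audic-Claverie FDR = 3.34e-10). The difference between the pairs, -2.96 on the log2 scale (-3.28 to -2.65), was the widest among the 8 receptors with counts above 3 in all libraries.

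IGF1R (chr15:98648539-98964530, plus strand), the receptor of insulin-like growth factors, had 311 counts in Hep3B and 215 in Hep3B-C, then 344 in Huh7 and 239 in Huh7-C. In CPM these were 107.4, 46.3, 75.8 and 55.2. Both HCSC lines were below their parental lines, with ratios of 0.431 (0.361 to 0.515) in the Hep3B pair and 0.727 (0.614 to 0.861, Audic-Claverie FDR = 0.000689) in the Huh7 pair, and the HCSC lines did not differ from each other beyond counting noise (Audic-Claverie FDR = 0.116). Only the first of these was called, and with the trend on gene length alone removed its log2 fold-change turned from -1.21 to 0.21. Per length, INSR over IGF1R was 2.41 in Hep3B and 1.19 in Hep3B-C, then 0.985 in Huh7 and 2.25 in Huh7-C. On the log2 scale this ratio changed by -1.02 (-1.36 to -0.68) in the Hep3B pair and by 1.19 (0.87 to 1.52) in the Huh7 pair, so its change had opposite signs.

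The ligand IGF2, which activates IGF1R and a form of INSR, was measured at 11888 counts in Hep3B and 326 in Hep3B-C, then 1 in Huh7 and 0 in Huh7-C. It fell 58.4-fold in Hep3B-C (52.4 to 65.4). IGF2R, which takes up and clears IGF2, had 2416, 2514, 817 and 1764 counts and was called up in Huh7-C, by 2.26-fold (2.08 to 2.46), a call lost with GC and length trends removed (log2 fold-change 0.82). Its ratio in the Hep3B pair was 0.649, below 1 and short of the fold threshold. GRB14, an adaptor that inhibits INSR, had 153, 54, 68 and 68 counts and fell 4.54-fold in Hep3B-C.

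PDGFRA and PRLR were above 3 counts only in the Hep3B lines. PDGFRA (chr4:54229097-54298247, plus strand), a receptor of platelet-derived growth factors, had 70 counts in Hep3B and 5 in Hep3B-C, then 1 in Huh7 and 0 in Huh7-C. It was 22.4-fold lower in Hep3B-C than in Hep3B (9.17 to 71.3, Audic-Claverie FDR = 6.46e-23). Hep3B-C, at 1.08 CPM, and Huh7 did not differ beyond counting noise (Audic-Claverie FDR = 0.199). PDGFRB, the other PDGF receptor, had 28, 45, 186 and 2 counts and fell 88.8-fold in Huh7-C with a counting interval of 24.3 to 739. In the Hep3B pair PDGFRB had a ratio of 1.003 (0.612 to 1.67), so PDGFRA was called down there and PDGFRB in the Huh7 pair. Of the ligands, PDGFC had 93, 27, 39 and 34 counts and fell in Hep3B-C, and PDGFA, with 280, 261, 37 and 56, was not called in either pair.

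PRLR (chr5:35048756-35230589, minus strand) had 176 counts in Hep3B and 97 in Hep3B-C, then 1 in Huh7 and 0 in Huh7-C. It was 2.91-fold lower in Hep3B-C than in Hep3B (Audic-Claverie FDR = 1.71e-17), a ratio of 0.344 (0.266 to 0.443). At 20.9 CPM, Hep3B-C was still above Huh7 beyond counting noise (Audic-Claverie FDR = 7.77e-27). The transcript of PRLR is long and poor in G and C (38.5%), and with the trends on GC content and length removed its log2 fold-change turned from -1.54 to 0.45. GHR, the related growth hormone receptor, had 65, 9, 26 and 12 counts and fell 11.6-fold in Hep3B-C (5.74 to 26.4). LEPR, the leptin receptor, had 123, 174, 62 and 53 counts and was not called in either pair. No fold is given for PDGFRA and PRLR in the Huh7 pair, since 1 count and 0 counts are both within the smallest detectable level.

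**Figure D3:**
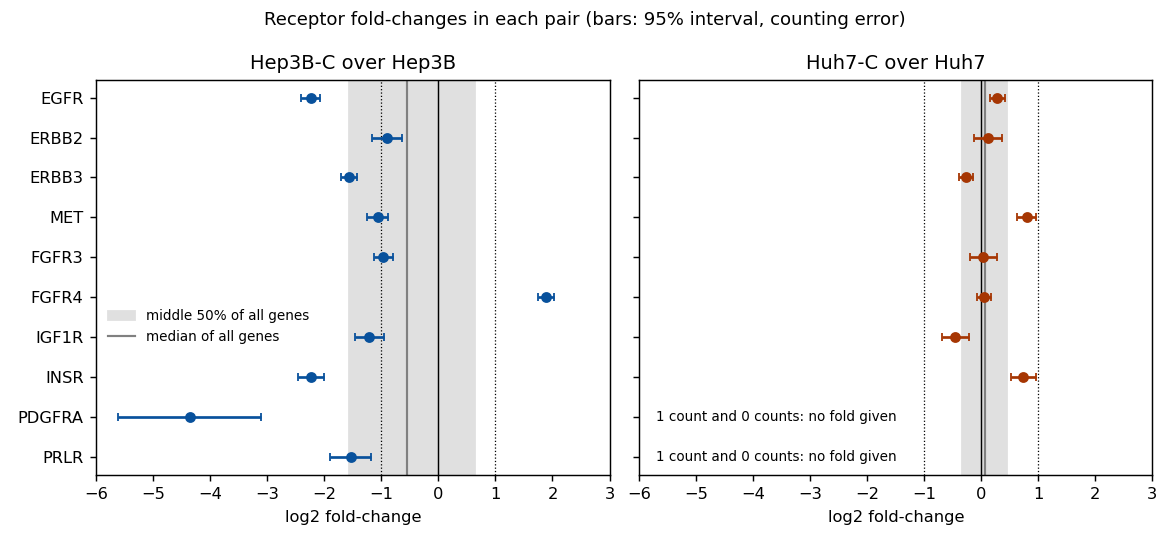
Log2 fold-change of each receptor in the Hep3B pair (left) and the Huh7 pair (right), with 95% intervals of counting error, the median (grey line) and the middle 50% (grey band) of all genes with at least 20 counts, and dotted lines at the fold threshold. FGFR4 stands at 1.89 in the Hep3B pair with the other 9 below 0, and in the Huh7 pair all 8 plotted lie between -0.46 and 0.79.

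In the main analysis the direction of change differed between the parental lines beyond counting noise for 3 receptors. EGFR, ERBB2, MET, FGFR3 and INSR had a log2 fold-change below 0 in the Hep3B pair and above 0 in the Huh7 pair, and for EGFR, MET and INSR both values passed the FDR threshold. With GC and length trends removed, MET was above 0 in both pairs (0.29 and 0.48). EGFR was then -1.94 and 0.08, the latter short of the FDR threshold. INSR was -1.325 and 0.37, both past it. With the length trend alone removed, EGFR (0.04) and INSR (0.34) in the Huh7 pair did not pass it. In the main analysis ERBB3 and IGF1R were lower in the HCSC line of both pairs and passed the FDR threshold in both. At any fold, all 10 receptors passed the FDR threshold in the Hep3B pair, 1 higher and 9 lower, where 19.1% of genes were higher and 37.9% lower. In the Huh7 pair 5 passed, 3 higher and 2 lower, where 15.4% of genes were higher and 12.2% lower. Of the 10 receptors, 9 had their highest CPM in Hep3B, as did 42.6% of 12614 genes with at least 20 counts over the libraries, and of the 8 above 3 counts in all libraries, 6 had their lowest in Hep3B-C, as did 35.5% of genes. The Hep3B library enters every fall in the Hep3B pair, so Hep3B-C was also set beside the Huh7 lines, a comparison of different parental lines chosen after the data had been seen. Against Huh7-C, Hep3B-C was lower in EGFR by 2.92-fold, in INSR by 2.25-fold and in MET by 2.03-fold, and higher in FGFR4 by 2.32-fold and in FGFR3 by 1.69-fold. Against Huh7, it was lower in EGFR by 2.40-fold, in INSR by 1.36-fold and in MET by 1.17-fold, the last within counting noise at an FDR of 0.01, and higher in FGFR4 by 2.40-fold.

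A change shared by both parental lines was tested over all 4 libraries by edgeR, blocked on parental line and with 1 residual degree of freedom. None of the 9 receptors that passed the count filter was called, and none had an unadjusted p under 0.05, where 0.0171% of 11691 genes were called up and 0.00855% down. DESeq2 called none of the 10 either, and none had an unadjusted p under 0.05. FGFR4 had the smallest p by edgeR, 0.223 (adjusted p = 0.999), with a log2 fold-change of 1.14. Leaving out 1 library at a time, without the block, moved that value from 0.38 without Hep3B-C to 1.78 without Huh7-C. PDGFRA did not pass the filter, and PRLR had a log2 fold-change of -1.31 (edgeR adjusted p = 0.999).

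**Figure D4:**
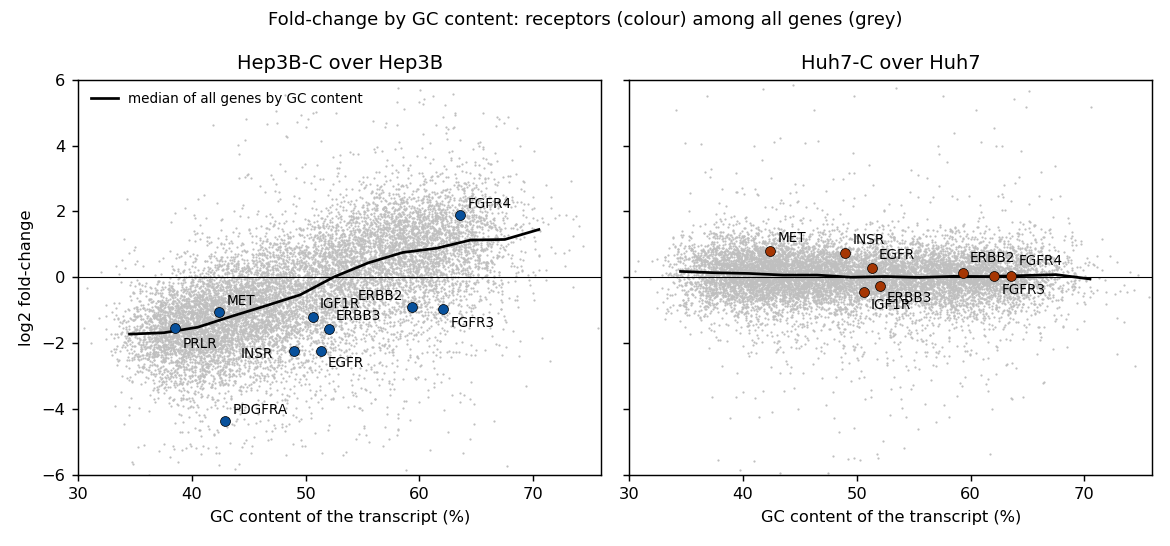
Log2 fold-change against GC content of the transcript for all genes with at least 20 counts in the pair (grey), with the receptors in colour and the median of all genes by GC content as a line (genes beyond the axis limits are not drawn). In the Hep3B pair the line climbs with GC content. FGFR4 lies above it and FGFR3, ERBB2, EGFR, ERBB3, IGF1R, INSR and PDGFRA lie below it. In the Huh7 pair the line is near 0.

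Fold-changes of genes in the Hep3B pair varied with GC content (Spearman 0.631 across genes) and with gene length (-0.433). The coefficients in the Huh7 pair were -0.0589 for GC content and 0.315 for length. These are descriptions across genes, which are not independent replicates. FGFR4 is richer in G and C than 93% of genes, and PRLR is poorer than all but 8.4%. With both trends removed, EGFR, ERBB2, ERBB3, FGFR3, INSR and PDGFRA were called down, 6 of 10, where 23% of all genes were. The removed trends were centred, so the median of all genes stayed at -0.46, beside -0.55 in the main analysis. Values of the Hep3B pair with trends removed still hold that shift. TMM library sizes moved the median of all genes by 0.60 on the log2 scale. Under it FGFR4 stood at 2.48, and 3 of the 7 falls, EGFR, INSR and PDGFRA, were still called. With TMM sizes 18.1% of all genes were called down and 21.6% up. Relative to the median of all genes, the main log2 fold-changes were 2.44 for FGFR4, -1.68 for EGFR and INSR, and -3.81 for PDGFRA, against -0.34 for ERBB2, -0.41 for FGFR3 and -0.51 for MET.

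Genes that act around the receptors were counted by their role. In the Hep3B pair 6 of 123 measured genes of the 8 lists were called up and 51 down. These shares were 4.88% and 41.5%, beside 13.2% and 30.4% of all genes. In the Huh7 pair 6 of 113 were called up and 6 down, 5.31% each, beside 4.19% and 4.15% of all genes. The ligand list gave 6 of 19 down and none up in the Hep3B pair. In the Huh7 pair it gave 1 up, HGF, and 1 down, MST1, of 16, or 6.25% each. MST1, the ligand of the MET relative MST1R, was called down in both pairs, with 142, 99, 55 and 22 counts, but with TMM library sizes its call in the Hep3B pair was lost (-0.60). Of the enzymes that release or mature ligands, 3 of 10 were down in the Hep3B pair, with ADAM10, which sheds ligands and receptors, 6.22-fold lower. Of the other receptors of the same families, 5 of 15 were down, KLB, EPOR, ERBB4, FGFR2 and GHR. Shares of 30% to 33.3% in these lists are near the 30.4% of all genes.

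The list of genes that attenuate receptor signalling had 16 of 24 called down in the Hep3B pair, 66.7% beside 30.4% of all genes, and none up. Its median log2 fold-change was -1.47, beside -0.60 over all genes with at least 10 counts. The 16 included the ubiquitin ligases CBL and CBLB and the receptor inhibitors LRIG1, LRIG2 and LRIG3. With GC and length trends removed, 7 of 24 were called down, where 23% of all genes were. In the Huh7 pair 4 of the 24 were called up, LRIG3, LRIG1, SOCS7 and CBL, and SOCS2 and SOCS3 were called down. These were 16.7% up and 8.33% down, beside 4.19% and 4.15% of all genes. With GC and length trends removed 3 were up and 3 down, beside 3% and 4.04% of all genes. LRIG1 had 138 counts in Hep3B and 91 in Hep3B-C, then 10 in Huh7 and 60 in Huh7-C, and CBL had 195, 120, 147 and 338. LRIG1, LRIG3 and CBL were called down in the Hep3B pair and up in the Huh7 pair. Their calls in the Hep3B pair were lost with TMM library sizes, at log2 fold-changes of -0.68, -0.59 and -0.78. With GC and length trends removed, CBL was called in neither pair (0.04 and 0.74) and LRIG3 was not called in the Hep3B pair (-0.61).

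Downstream of the receptors, the adaptors had 7 of 19 called down in the Hep3B pair, 36.8% beside 30.4% of all genes, and none up. TMM library sizes gave 5 down and 3 up, where 18.1% of all genes were down and 21.6% up. SOS1, which loads RAS with GTP, was 7.17-fold lower and PTPN11, the phosphatase SHP2, 4.23-fold lower in Hep3B-C, and both were higher in Huh7-C, with ratios of 1.68 and 1.62 that did not pass the fold threshold. With GC and length trends removed PTPN11 was not called in the Hep3B pair (-0.75). The RAS-ERK list went both ways in the Hep3B pair, with 3 of 10 genes down, NRAS and BRAF among them, and HRAS, ARAF, MAPK3 and MAP2K2 up. These were 30% down and 40% up, beside 30.4% and 13.2% of all genes. With GC and length trends removed 1 of 10 was down and 1 up, beside 23% and 4.57% of all genes. BRAF had 122 counts in Hep3B and 44 in Hep3B-C, then 91 in Huh7 and 112 in Huh7-C, and HRAS had 12, 147, 178 and 171. The transcript of BRAF is 42.4% G or C and that of HRAS 65.8%, and with GC and length trends removed BRAF was still called down and HRAS was not called. None of the 10 genes was called in the Huh7 pair.

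The PI3K-AKT list had 2 of 17 up (11.8%) and 7 down (41.2%) in the Hep3B pair, beside 13.2% and 30.4% of all genes. TMM library sizes gave 6 up and 6 down, where 21.6% of all genes were up and 18.1% down. With GC and length trends removed 1 of 17 was down and 2 up, beside 23% and 4.57% of all genes. The catalytic subunit PIK3CD rose 7.07-fold (4.17 to 12.9), and PIK3CA, with 104 and 44 counts, fell 3.79-fold, a call lost with those trends removed (-0.74). In the JAK-STAT list 4 of 9 genes were down, JAK1, JAK2 and PIAS1 among them, and none was up, a share of 44.4% beside 30.4% of all genes. TMM library sizes left 1 down and 1 up, where 18.1% of all genes were down and 21.6% up. Removal of GC and length trends left 2 down, where 23% of all genes were down. JAK1 was called under neither (-0.67 and -0.45). In the Huh7 pair no gene of either list was called.

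**Figure D5:**
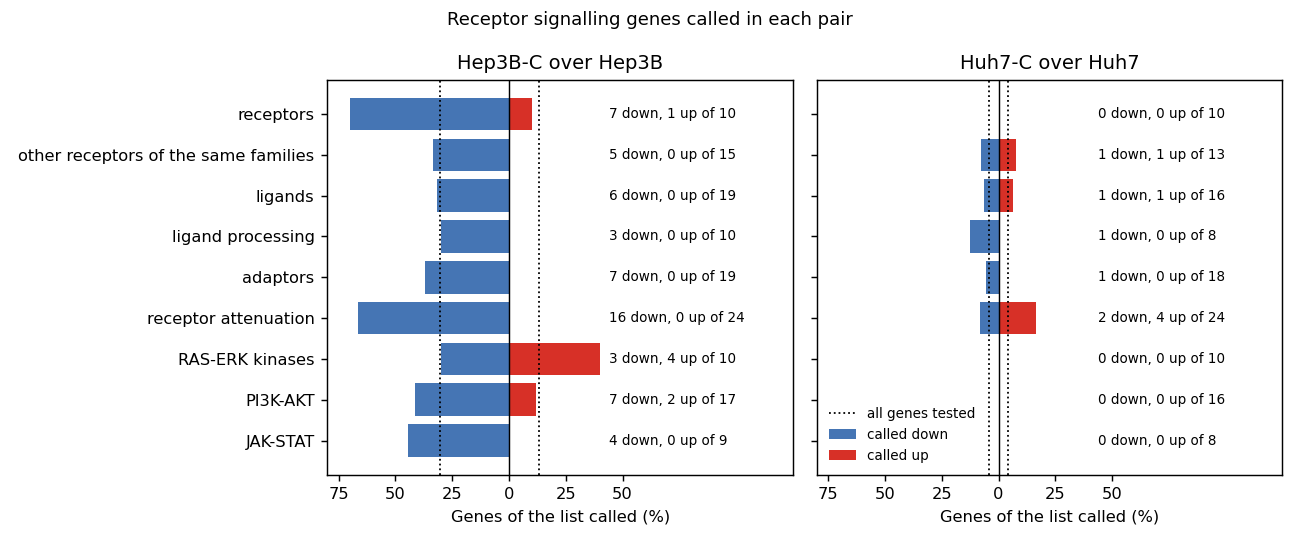
Share of the genes of each list called down (left of 0) and up (right of 0) in the Hep3B pair and the Huh7 pair, with dotted lines at the shares over all genes tested. In the Hep3B pair the receptors, at 70% down, and the genes of receptor attenuation, at 66.7% down, lie farthest beyond the 30.4% of all genes. JAK-STAT (44.4%), PI3K-AKT (41.2%), adaptors (36.8%), other receptors (33.3%) and ligands (31.6%) lie beyond it by less. In the Huh7 pair no list has more than 4 genes called up or 2 called down. The lists were chosen with earlier results of these data known.

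The genes whose pattern over the 4 libraries was most like that of each receptor were found among 11354 genes by the distance of mean-centred log2(CPM + 1) values. For FGFR4 they were FLII (distance 0.129), STOML1 and NDUFS7. FLII stood at 142.2, 593.1, 224.8 and 235.6 CPM in Hep3B, Hep3B-C, Huh7 and Huh7-C. For EGFR they were C3orf63, USP25 and CRYBG3, for INSR TMEM67, RAD50 and TNKS2, and for MET CDC42BPB, RBBP8 and IKBKAP. For PDGFRA the nearest gene was N4BP2L1 at 0.236 and for PRLR DTNA at 0.407, farther than for the other 8 receptors, whose nearest genes lay within 0.129. For ERBB2, ERBB3, FGFR3 and IGF1R the nearest were WDYHV1, ABI1, POLR2J4 and TRIM5. With 4 libraries, a close pattern is a description of these libraries.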

How the data were processed

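Total RNA of each line was read on an Illumina GA II instrument. The authors filtered the reads, mapped them with NextGENe to a human genome build older than GRCh38, and deposited whole-number read counts per gene with gene lengths, not normalized. How they treated reads matching several genes was not given in the sources used here, so reads of related receptors may be shared. Genes without a count in either library of a pair were not listed in its files and were taken as 0 in the joint fit. Positions and GC content are GENCODE annotation on GRCh38, given as annotation only, and promoters are from RefSeq.

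CPM and RPKM were computed from the counts, the deposited length and the total gene count. Each HCSC library was compared with its parental library by the Audic-Claverie test (tail doubled, Benjamini-Hochberg over all genes of the pair), the kind of Poisson test the study used, with 0.5 added to counts for log2 fold-changes. Both groups were compared by edgeR 4.0.16 (quasi-likelihood, TMM, filterByExpr, Benjamini-Hochberg over 11691 genes) with the parental line as block. The block follows the design, since each HCSC line was derived from its parental line, and deviations from the group means correlated within lines (Pearson 0.625 over 11682 genes). DESeq2 1.42.0 was an alternative. R 4.3.3 and Python 3.11.15 were used, and the tests were checked on simulated counts. For the joint fit these had larger changes than the receptors had in it and a smaller spread than the data. That check therefore does not measure the power of the joint fit here.

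The receptors and gene lists were chosen with earlier results of these data known. Named genes were all receptors, up to 4 called genes with the largest change per list and pair with at least 50 counts in a library, ligands and related receptors with at least 50 counts, and the 3 genes of most similar pattern. Genes named besides these only as called, or for the markers, were named after their values were seen. The alternatives tried were TMM and DESeq2 library sizes, 5 added to counts, an exact binomial test, count filters, an assumed spread (BCV) of 0.4, removal of length and GC trends, and each library left out. The spread of the joint fit, the ratios of receptors and the comparison without Hep3B were chosen after seeing the data. Some genes that this rule names are not reported here.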

Additional observations from a re-analysis of the deposited data

Results flagged for a closer look

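For 5 receptors the log2 fold-change had opposite signs in the Hep3B pair and the Huh7 pair. The value in Hep3B-C minus that in Huh7-C was -2.52 for EGFR, -1.02 for ERBB2, -1.86 for MET, -1.003 for FGFR3 and -2.96 for INSR. With 1 library per line this difference was not tested beyond counting error, and the 95% intervals from counting error did not include 0. For ERBB2 and FGFR3 the value in the Huh7 pair, 0.12 and 0.04, was within counting noise. FGFR3 changed sign there with other library sizes and with length or GC trends removed, and ERBB2 with those trends removed only. With GC and length trends removed, MET was above 0 in both pairs (0.29 and 0.48). EGFR in the Huh7 pair was then 0.08 and did not pass the FDR threshold.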

How the results depend on the processing

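In the Hep3B pair, the main analysis called 1 receptor up and 7 down, and 6 pathway genes up and 51 down. Of all genes, 13.2% were called up and 30.4% down. With TMM or DESeq2 library sizes, 3 receptors were down, 16 and 17 pathway genes were up, and with DESeq2 sizes 30 were down. Under TMM 21.6% of all genes were called up and 18.1% down. The up share of all calls moved from 30.3% to 54.5% under TMM and 58.2% under DESeq2 sizes. Without the length trend 3 receptors were down and 10 pathway genes up, where 4278 of 15480 genes were called down and 1666 up. Without GC and length trends 0 receptors were up. Without both trends 4.57% of all genes were called up. At an assumed BCV of 0.4, 0 receptors were up and 1, PDGFRA, was down, with 0 pathway genes up and 3 down in the Hep3B pair, and 1 up and 1 down in the Huh7 pair. Of all genes, 0.401% were then up and 1.09% down in the Hep3B pair, and 0.0878% and 0.081% in the Huh7 pair. At the BCV of the joint fit, 0.514, tried after the data were seen, no receptor and no pathway gene was called in either pair (0 up, 0 down). Of 90 single values in the Hep3B pair, 57 kept their direction and side of the threshold, 28 lost and 2 gained the call, and 3 changed sign: IGF1R (0.21, length trend removed), MET (0.29) and PRLR (0.45), both with GC and length trends removed. In the Huh7 pair 64 of 72 held and 8 changed sign: FGFR3 (-0.0049 with TMM, -0.0298 with DESeq2 sizes, -0.0844 and -0.127 without the length, and GC and length, trends), FGFR4 (-0.0163 and -0.0279 with DESeq2 sizes and without GC and length trends) and ERBB2 (-0.0546 and -0.0564 without the length, and GC and length, trends). The causes were not tested. Over both lines, 0 receptors were called under every alternative, leaving out each library included. Without the replicate block the smallest p was 0.169, for FGFR4, and 0 receptors were called. Without the filter PDGFRA, at a log2 fold-change of -3.91, had an edgeR adjusted p of 0.81. PRLR changed sign with GC and length offsets and the block (0.55). With each library left out in turn, FGFR4 ranged from 0.38 to 1.78, FGFR3 ranged from -0.95 to 0.56, INSR from -1.26 to 0.29 and PRLR from -9.73 to 5.56, above 0 only without HCC replicate 1 (Hep3B), and MET from -0.40 to 0.43, below 0 without HCC replicate 2 (-0.17) or HCSC replicate 2. These fits had no block, since 3 libraries leave no residual degree of freedom with it. Depth limits PDGFRA and PRLR, at 1 count or 0 in the Huh7 lines.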
